A study of Mus musculus with 4 samples.

Results

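The TCR alpha and beta variable genes were taken as every gene whose symbol starts with Trav or Trbv, which gave 163 of the 32285 genes in the count tables, 128 Trav genes and 35 Trbv genes. Their usage was described in spleen Tc of 4 leukemia-bearing mice, with 1 single-cell RNA library per mouse. All 4 BALB/c recipients received lethal total body irradiation, C57BL/6 BM and 10000 WEHI-3B leukemia cells, followed by 200000 donor spleen Tc on day 2, and spleen Tc were taken on day 23. WEHI-3B is a myelomonocytic leukemia line of BALB/c origin, and mice were 7 to 12 weeks old. In 2 mice the donor genotype was Havcr2fl/fl;E8icre/+, in which E8i-cre drives deletion of Havcr2 (TIM-3) in CD8+ cells, and the libraries are called TIM-3 KO 1 and 2. In the other 2 mice the donors were Havcr2fl/fl, with both floxed alleles and no cre, and the libraries are called floxed control 1 and 2. Where 4 values stand together, they follow the order TIM-3 KO 1, TIM-3 KO 2, floxed control 1 and floxed control 2. Each mouse counts as 1 replicate.

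A T cell joins 1 alpha variable segment and 1 beta variable segment to further segments by DNA recombination in the thymus, and its progeny inherit the same pair. The variable segments contribute to binding of peptide-MHC, and an excess of cells with 1 pair in a mouse is a common sign of clonal growth, which can be settled only with the junction sequence. The libraries were made with 3′ chemistry, which reads the end of the mRNA, while the variable segment lies near its 5′ start, so variable gene UMIs (unique molecular identifiers, 1 per captured RNA molecule) are sparse and junctions are not read.

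The genes that the results turn on are shown by the last 60 bases of their annotated transcript (GENCODE M21 on GRCm38, all on the plus strand), in which capitals mark the last in-frame cysteine codon, where the junction of the receptor begins. Trbv29 and Trav16 were the genes most raised in CD8+ Tc over CD4+ Tc. They lie at chr6:41271394-41271881 and chr14:53743104-53743705.
Trbv29: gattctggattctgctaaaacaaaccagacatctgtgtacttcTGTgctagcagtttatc
Trav16: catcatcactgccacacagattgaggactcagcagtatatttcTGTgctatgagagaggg
Trbv16 (chr6:41151740-41152230) and Trav3-3 (chr14:53665929-53666506) were the ones lowered.
Trbv16: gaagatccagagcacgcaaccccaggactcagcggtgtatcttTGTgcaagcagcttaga
Trav3-3: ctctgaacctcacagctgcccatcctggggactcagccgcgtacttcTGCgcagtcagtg
Trbv3 (chr6:41048290-41048828) recurred with Trav12-2 (chr14:53616315-53616914) in 1 mouse and with Trav6-7-dv9 (chr14:53709902-53710419) in another.
Trbv3: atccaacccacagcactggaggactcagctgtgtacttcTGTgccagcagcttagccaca
Trav12-2: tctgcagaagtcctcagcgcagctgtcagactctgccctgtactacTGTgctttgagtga
Trav6-7-dv9: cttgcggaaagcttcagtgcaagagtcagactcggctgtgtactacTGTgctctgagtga
Trbv15 (chr6:41141188-41141658) recurred with Trav16 in another mouse, and Trbv12-1 (chr6:41113550-41114067) made up most of the beta calls of Foxp3+ cells.
Trbv15: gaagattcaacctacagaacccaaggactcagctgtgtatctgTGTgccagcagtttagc
Trbv12-1: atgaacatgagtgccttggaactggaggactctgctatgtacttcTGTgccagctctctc

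The mouse Trav cluster holds copied blocks, so several Trav genes are nearly the same sequence. The last 100 bases of Trav16 and of its copy Trav16n (chr14:53351028-53351621) are shown because both genes were among the most used, with a capital where the copy differs.
Trav16: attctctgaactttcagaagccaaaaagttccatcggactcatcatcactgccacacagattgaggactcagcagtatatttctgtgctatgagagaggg
Trav16n: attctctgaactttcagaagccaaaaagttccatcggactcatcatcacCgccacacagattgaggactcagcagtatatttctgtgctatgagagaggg
Counted from the first base shown, Trav16n differed from Trav16 by T50C alone, and over the last 250 bases the copies differed at 3 positions. Trav6-5 differed by G96A in the same window from Trav6n-5 (chr14:53104871-53105344), a gene seen in 1 mouse only, and at 1 position over 250 bases. Reads from such copies may have been split between them or dropped by the authors' counting, so the split between Trav16 and Trav16n and between Trav6n-5 and Trav6-5 is uncertain. Base 96, the only one that parts Trav6-5 from Trav6n-5, lies past the last cysteine codon, where the junction begins. Whether cells called Trav6n-5 used Trav6-5 was not tested.
Trav6n-5: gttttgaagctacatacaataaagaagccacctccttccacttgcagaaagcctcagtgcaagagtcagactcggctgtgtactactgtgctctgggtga
Trav6-5: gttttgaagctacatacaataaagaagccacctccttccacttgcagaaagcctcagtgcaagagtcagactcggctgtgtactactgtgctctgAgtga

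Of the 163 members, 102 had a UMI in at least 1 T cell (22 Trbv and 80 Trav), and 61 had none. A UMI was found in all 4 libraries for 52 members and in 1 library for 12. Annotated pseudogenes were rarely seen: 6 of 33 had a UMI, with 66 of the 4892 variable gene UMIs. Over windows of 90 bases, taken as a read length, 35 of the 48 Trav genes without a UMI had no window that was unique among annotated transcripts, whereas 4 of the 80 Trav genes with a UMI had none. Most Trav genes without counts were thus ones that such a read cannot tell from a copy. Of the 22 Trbv genes with a UMI, 20 were unique in every window, and 12 of the 13 Trbv genes without a UMI were as well.

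T cells were defined as cells of clusters in which most cells carried a Cd3e, Cd3d or Cd3g UMI, and which themselves carried one. They numbered 2299, 1753, 794 and 1773, and 6619 in all. Of these, 4180 were CD8+ Tc (a Cd8a or Cd8b1 UMI, no Cd4 UMI), 1725 were CD4+ Tc, 194 carried UMIs of both coreceptors and 520 of neither. The libraries held 38386626, 31449644, 17693991 and 55045903 gene UMIs, but the median T cell held 4332, 5679, 6322 and 2886 UMIs, so the deepest library had the shallowest T cells. Pairs of libraries shared between 1 and 10 cell barcodes.

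The targeted gene was checked first. Havcr2 stood at 61.0, 7.97, 56.6 and 119 TMM-normalized CPM (UMI counts scaled to a common library size) in CD8+ Tc and at 53.2, 28.2, 16.8 and 48.5 CPM in CD4+ Tc. CD8+ Tc of the library labelled TIM-3 KO 1 were not lower than those of floxed control 1, and only TIM-3 KO 2 stood below both controls. By CD8+ state (named below), Havcr2 was at 1.28, 0.787, 9.96 and 23.7 CPM in TPEX-like cells (precursors of exhausted cells). In TTEX-like cells (terminally exhausted) it was at 155, 14.0, 143 and 251 CPM. TIM-3 KO 1 thus stood below both controls in TPEX-like but not in TTEX-like cells. The 3′ counts may lie outside the deleted part of the gene, which was not tested, so genotype is used below as the label gives it.

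A Trbv UMI was found in 20.3% (95% Wilson interval 18.7 to 22.0), 35.3% (33.1 to 37.6), 35.4% (32.1 to 38.8) and 14.8% (13.3 to 16.6) of T cells, and a Trav UMI in 20.3%, 35.3%, 34.3% and 16.5%. Such intervals cover counting error only, since the cells of a mouse are not independent. Detection was highest in TIM-3 KO 2 and floxed control 1, whose T cells were deepest, and after thinning every cell to 2000 UMIs the Trbv shares were 8.79%, 12.6%, 13.2% and 9.81%. Among cells of other clusters that lacked Cd3 UMIs, at median depths of 10026 to 16843 UMIs, 0.437% to 1.77% carried a Trbv UMI and 0% to 1.55% a Trav UMI. Variable gene UMIs were therefore more frequent in T cells than in these other cells. In the other cells they were seen most often for Trbv12-2 (8 cells), Trav6-7-dv9 (8 cells) and Trbv13-2 (7 cells). Trbv29 and Trbv3 were each seen in 1 such cell, and the source of these UMIs was not tested.

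Each T cell was assigned the variable gene with most UMIs of each chain, and a tie gave no call. This gave 1547 cells with a Trbv call, 1535 with a Trav call and 464 with both. UMIs of at least 2 genes of a chain were seen in 7.67% of Trbv-positive and 12.7% of Trav-positive cells. A second functional alpha chain is common in T cells, whereas a second beta chain is rare. The pairs of genes seen together most often were Trbv12-2 with Trbv13-2 (12 cells, 2.82 from the product of their shares) and Trav16d-dv11 with Trav16n (10 cells, 0.701 from the product), and the latter are copies of each other. Trbv12-2 (chr6:41118851-41119364) and Trbv13-2 (chr6:41121396-41121832) are neighbors on the chromosome, with no other Trbv gene between them. The source of the second UMI was not tested, so a call need not name the segment that the receptor uses.

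Repertoires differed between mice, and the same gene led by a wide margin in one and was ordinary in the next. Trbv29 was the most used beta gene on average, at 25.6%, 6.1%, 11.2% and 15.2% of called T cells (mean 14.5% ± 8.27, SD, n = 4 mice). Its highest and lowest shares were those of the TIM-3 KO mice, which carry 1 genotype. Trbv2 took 4.38%, 13.4%, 5.02% and 10.5% of calls. Trbv3 took 12%, 12.7%, 5.41% and 3.11%, which was higher in both TIM-3 KO mice. Trbv16, Trbv12-2, Trbv13-1, Trbv19 and Trbv13-2 followed with means of 8.31%, 7.98%, 7.31%, 7.22% and 6.36%. Their SD between mice ran from 1.29 to 4.27 percentage points, so neighbors in this order did not differ beyond their spread.

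**Figure D1:**
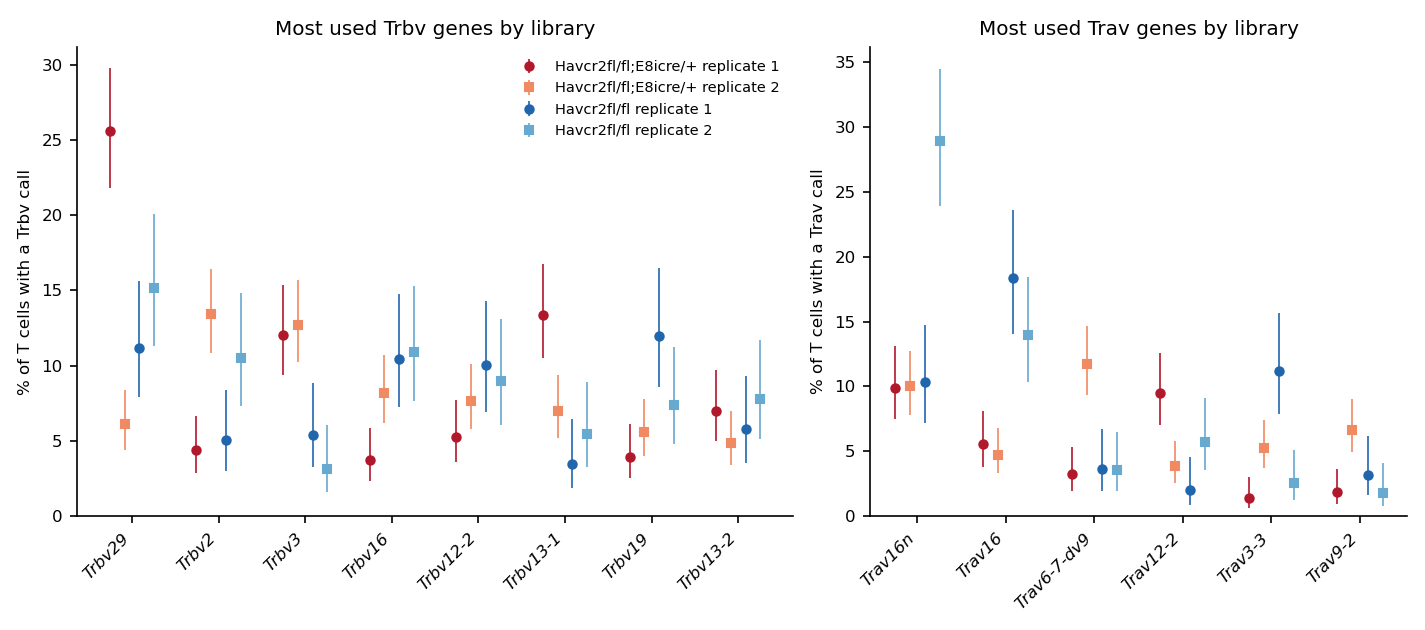
Share of T cells with a call of the chain (y axis, %) for the 8 most used Trbv genes and the 6 most used Trav genes (x axis) in each library, with 95% Wilson intervals. Trbv29 reached 25.6% in Havcr2fl/fl;E8icre/+ replicate 1 and Trav16n 28.9% in Havcr2fl/fl replicate 2, each above the other 3 libraries.

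Among alpha genes, Trav16n led with 9.91%, 10.0%, 10.4% and 28.9% of calls (14.8% ± 9.42), and floxed control 2 stood apart from 3 nearly equal mice. Its copy Trav16 took 5.53%, 4.74%, 18.3% and 13.9% (10.6% ± 6.60), higher in both floxed controls than in both TIM-3 KO mice. Trav6-7-dv9, Trav12-2, Trav3-3 and Trav9-2 had means of 5.53%, 5.25%, 5.08% and 3.37%. Each of these 4 was highest in a single mouse, at 11.8% for Trav6-7-dv9 and 6.67% for Trav9-2 in TIM-3 KO 2, 9.45% for Trav12-2 in TIM-3 KO 1 and 11.2% for Trav3-3 in floxed control 1. The overlap of usage between libraries, the sum over genes of the smaller of 2 shares, was 57.6% to 75.3% for Trbv and 37.7% to 55.0% for Trav in CD8+ Tc. In CD4+ Tc it was 43.7% to 69.3% for Trbv and 34.4% to 52.7% for Trav. A small number of calls also lowers this overlap, and CD4+ Tc had fewer calls than CD8+ Tc in each library.

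The overlap of usage between CD8+ and CD4+ Tc of the same mouse was 59.1%, 50.8%, 68.1% and 44.5% for Trbv. For Trav it was 36.4%, 37.2%, 34.2% and 26.2%. Between CD8+ Tc of a mouse and CD4+ Tc of another it was 33.9% to 71.8% for Trbv and 26.8% to 45.9% for Trav. Some genes differed in use between the classes. Trbv29, Trav16 and Trav16n were higher in CD8+ Tc, and Trbv16 and Trav3-3 were lower. UMIs were summed per mouse and class and tested across all genes with edgeR's quasi-likelihood test (mouse as a block, Benjamini-Hochberg adjustment, threshold 0.05). Of 14 members with enough UMIs to be tested, 5 passed, 3 higher and 2 lower in CD8+ Tc. Over all 10301 genes tested, 25.0% passed, 12.5% higher and 12.6% lower, and whether the members' share of calls differs from that was not tested.

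Trbv29 stood at 12.8, 7.97, 10.5 and 8.56 CPM in CD8+ Tc and at 4.14, 0, 0 and 0.989 CPM in CD4+ Tc. The groups did not overlap, and the log2 fold change was 2.83 (SE 0.49, edgeR adjusted p = 0.000797). As a share of cells with a Trbv call, Trbv29 took 30.8%, 9.5%, 15.6% and 19.5% in CD8+ Tc against 9.0%, 0%, 0% and 2.08% in CD4+ Tc. The difference in share was 16.1 percentage points ± 5.09, higher in 4 of 4 mice (exact sign-flip permutation test, two-sided p = 0.13, the smallest that 4 mice can give).

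Trav16 was at 4.97, 8.72, 24.4 and 13.0 CPM in CD8+ Tc and at 0.345, 2.35, 2.68 and 0.989 CPM in CD4+ Tc, without overlap (log2 fold change 2.70, SE 0.33, edgeR adjusted p = 3.68e-05). Trav16n was at 6.1, 16.8, 13.4 and 24.2 CPM in CD8+ Tc and at 4.49, 2.35, 2.01 and 0.989 CPM in CD4+ Tc, again without overlap (log2 fold change 2.23, SE 0.39, edgeR adjusted p = 0.000757). Both copies differed in the same direction. Their shares among Trav calls were higher in CD8+ Tc in 4 of 4 mice, by 10.6 points ± 7.70 for Trav16 and 14.3 points ± 11.6 for Trav16n (exact sign-flip p = 0.13 for each, the smallest possible). The 3 genes stayed past the threshold in all 11 other settings tried.

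Trbv16 ran the other way, at 0.226, 2.26, 6.81 and 2.85 CPM in CD8+ Tc and at 4.49, 9.40, 10.7 and 17.8 CPM in CD4+ Tc. The highest CD8+ value, in floxed control 1, lay above the lowest CD4+ value, in TIM-3 KO 1, but within each mouse CD4+ Tc were higher (log2 fold change -1.98, SE 0.38, edgeR adjusted p = 0.00177). Its share was 0.615%, 2.51%, 8.94% and 5.79% in CD8+ Tc against 10.0%, 17.0%, 12.7% and 29.2% in CD4+ Tc. Trav3-3 was at 0.904, 3.46, 4.98 and 1.76 CPM in CD8+ Tc and at 1.38, 7.05, 14.1 and 1.98 CPM in CD4+ Tc. The ranges overlapped widely and the difference was small in TIM-3 KO 1 and floxed control 2 (log2 fold change -1.06, SE 0.30, edgeR adjusted p = 0.0192). DESeq2 did not call Trav3-3 (adjusted p = 0.230), and without the mouse as a block neither Trav3-3 (edgeR adjusted p = 0.302) nor Trbv16 (edgeR adjusted p = 0.0956) passed.

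**Figure D2:**
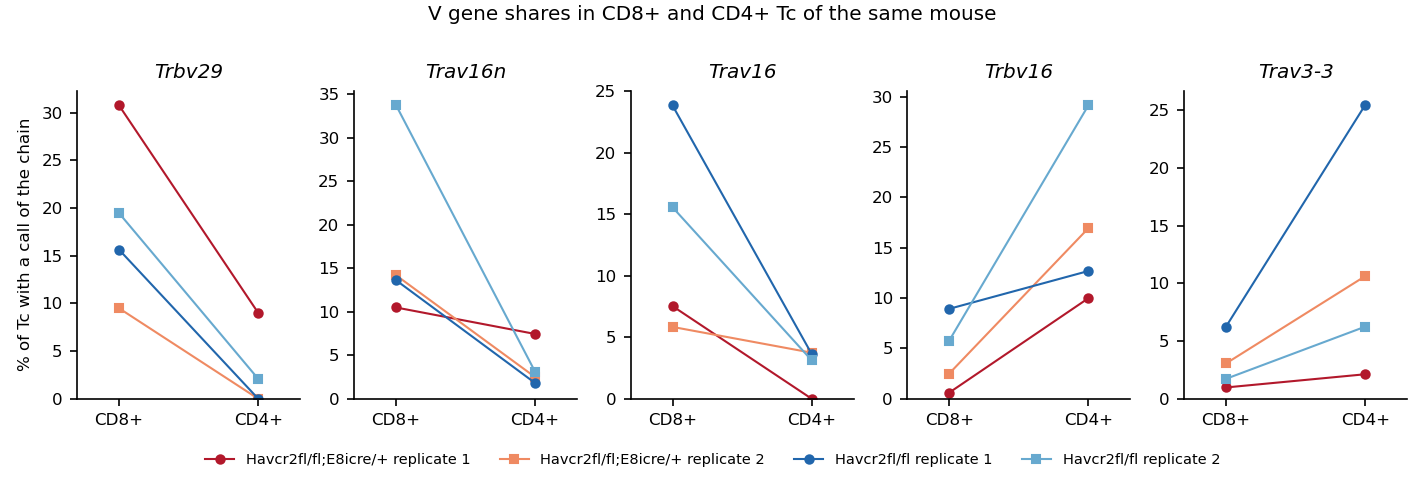
Share of cells with a call of the chain (y axis, %) that carried each of the 5 genes past the threshold, in CD8+ and CD4+ Tc, with a line for each mouse. Trbv29, Trav16n and Trav16 were higher in CD8+ Tc in 4 of 4 mice, and Trbv16 and Trav3-3 were higher in CD4+ Tc in 4 of 4 mice.

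Trbv genes of families known to respond to superantigens of mouse mammary tumor virus carried by BALB/c mice (Trbv26, Trbv12-1, Trbv12-2, Trbv16 and Trbv15) made up 12.3%, 20.9%, 35.2% and 25.3% of Trbv calls in CD8+ Tc and 25.0%, 39.2%, 41.3% and 52.1% in CD4+ Tc. Superantigens bind MHC class II and the outer face of certain beta variable segments. The list was lower in CD8+ Tc in 4 of 4 mice, by 16.0 points ± 8.78 (exact sign-flip p = 0.13, the smallest possible). The genes did not move as 1 group: Trbv16 and Trbv26 (difference -5.79 points ± 4.80) were lower in CD8+ Tc in 4 of 4 mice, Trbv12-1 was higher in 4 of 4 mice by 2.21 points ± 2.57, and Trbv12-2 and Trbv15 were higher in 2 of 4 mice.

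The Trbv13 family, the beta genes most used in many unmanipulated mice, took 19.1% ± 4.97 of calls in CD8+ Tc and 15.8% ± 3.71 in CD4+ Tc, higher in CD8+ Tc in 3 of 4 mice (exact sign-flip p = 0.375). Trav11 and Trav11d, which encode the invariant alpha chain of NKT cells, were never called. Of their 90-base windows, 1 of 254 in Trav11 and 0 of 253 in Trav11d were unique, so such reads could not be assigned to them and the absence of calls gives no limit on their share. Trav1, the alpha gene of MAIT cells, took 0.639% ± 1.07 of Trav calls in CD8+ Tc and 1.81% ± 0.93 in CD4+ Tc.

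The effective number of genes, the inverse of the chance that 2 called cells of a mouse carry the same gene, measured how evenly the genes were used. For Trav it was 16.2, 15.5, 11.6 and 6.84 in CD8+ Tc and 21.6, 27.2, 13.0 and 41.3 in CD4+ Tc. CD8+ Tc were lower in 4 of 4 mice, by 13.3 ± 14.8 (exact sign-flip p = 0.13, the smallest possible), and without floxed control 2, whose CD4+ value rests on 32 cells, the difference was -6.20. For Trbv it was 6.80, 10.5, 11.6 and 11.4 in CD8+ Tc and 12.2, 13.6, 13.7 and 8.17 in CD4+ Tc. CD8+ Tc were lower in 3 of 4 mice (difference -1.83 ± 3.64, exact sign-flip p = 0.5), which is within the spread between mice.

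**Figure D3:**
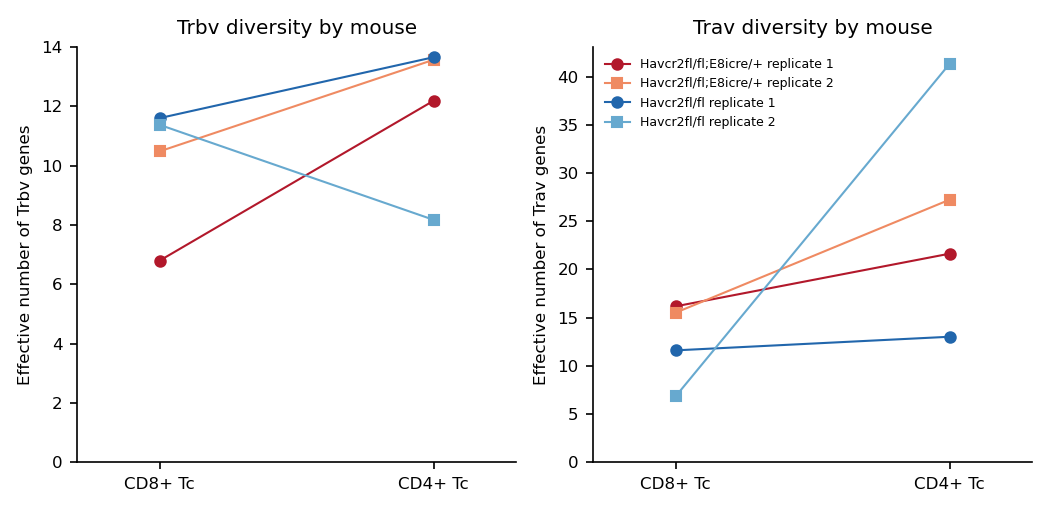
Effective number of Trbv genes (left) and Trav genes (right) in CD8+ and CD4+ Tc, with a line for each mouse. Trav usage was less even in CD8+ Tc in 4 of 4 mice, whereas for Trbv Havcr2fl/fl replicate 2 ran against the other 3.

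Between the genotypes, no variable gene passed the threshold. In CD8+ Tc, 0 of 20 members tested were called by edgeR and 0 by DESeq2, against 0.0277% of all 10824 genes tested by edgeR, and 5 members had an unadjusted p under 0.05 in edgeR and 4 in DESeq2. The 5 were Trbv3 (log2 fold change 1.82, SE 0.54) on the side of the TIM-3 KO label and Trbv15 (-2.60, SE 0.97), Trbv16 (-2.03, SE 0.80), Trbv19 (-2.10, SE 0.72) and Trav16 (-1.46, SE 0.37) on the side of the floxed control. Each had an edgeR adjusted p of 1.0. The share of all genes with an unadjusted p under 0.05 was not computed, so these 5 members cannot be read as an excess. In CD4+ Tc, 0 of 4 members tested were called by edgeR, against 0% of 9568 genes, and 0 had an unadjusted p under 0.05 in edgeR. DESeq2 called 0 of the 4 members, against 5 of 9568 genes. The effective number of Trbv genes in CD8+ Tc was 8.64 ± 2.60 in the TIM-3 KO mice and 11.5 ± 0.159 in the floxed controls (exact permutation p = 0.333, the smallest that 2 against 2 can give). That of Trav genes ran the other way, at 15.8 ± 0.465 in the TIM-3 KO mice and 9.23 ± 3.38 in the floxed controls (exact permutation p = 0.333).

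Several genes were held mostly by 1 mouse, taken as at least 20 called CD8+ Tc in 1 library at a share at least 3 times that in each other library. There were 7 such genes in CD8+ Tc. None met the rule in CD4+ Tc, where a library held 32 to 160 Trav calls and 48 to 171 Trbv calls, so 20 cells was a much larger share of calls than in CD8+ Tc and the classes cannot be compared by this count. Trav6n-5 was called in 39 of 305 CD8+ Tc with a Trav call in TIM-3 KO 1 (12.8%) and in 0 of 766 in the other mice. Trav6-7-dv9 was called in 49 of 359 in TIM-3 KO 2 (13.6%) and in at most 3.03% elsewhere. Trbv15 took 22 of 179 Trbv calls in floxed control 1 (12.3%, at most 2.63% elsewhere).

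Smaller shares of the same kind were seen for Trav9-2 (9.75%) and Trav7-1 (5.85%) in TIM-3 KO 2 and for Trbv5 (8.31%) and Trav19 (6.56%) in TIM-3 KO 1. Such a group of cells may hold 1 clone or several, since no junction was read.

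The cells that carried a gene of this kind were set beside the other called cells of the mouse by CD8+ state, as a description. States came from clusters made without variable genes and were named from markers. TPEX-like cells (precursors of exhausted cells) raised Tcf7, Slamf6 and Id3, and TTEX-like cells (terminally exhausted) raised Tox, Pdcd1 and Lag3. Teff-like cells (effectors) raised cytotoxic genes, among them Gzmk, Gzmb and Prf1. TTEX-like and Teff-like cells overlapped in markers. TTEX-like cells also raised Prf1, Ifng, Ccl5, Ccl4 and Nkg7, and Teff-like cells also raised Lag3, Eomes, Entpd1 and Cd244a. The Trav6n-5 cells of TIM-3 KO 1 were 38.5% TTEX-like and 30.8% and 20.5% in the 2 cycling clusters, with none of the 39 in the TPEX-like cluster, whereas other cells with a Trav call in that library were 19.2% TTEX-like and 14.7% TPEX-like. A Havcr2 UMI was carried by 87.2% of Trav6n-5 cells and 12% of other cells with a Trav call, and a Tcf7 UMI by 2.56% and 18.0%. Their median depth was 7713 UMIs against 5544.5 in the other called cells.

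The Trav6-7-dv9 cells of TIM-3 KO 2 had none of 49 in the TPEX-like cluster, against 25.2% of other cells with a Trav call. They carried Mki67, a marker of dividing cells, in 59.2% against 28.7%, Gzmb (granzyme B) in 71.4% against 46.8%, and Pdcd1 (PD-1) in 53.1% against 74.2%. None of the 49 carried a Havcr2 UMI, against 2.58% of the other called cells. Trav7-1 cells of the same mouse lay in the Teff-like cluster in 52.4% against 8.58%, and carried Gzmb in 85.7% against 47.9%.

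Trav19 cells of TIM-3 KO 1 were TTEX-like in 65.0% against 18.6% of other called cells. Trav9-2 cells of TIM-3 KO 2 were Teff-like in 22.9% against 9.88% and TPEX-like in 5.71% against 23.5%. Trbv15 cells of floxed control 1 were TTEX-like in 27.3% against 14.0% and TPEX-like in 9.09% against 15.3%, and carried Gzmb in 27.3% against 58.6%. Trbv5 cells of TIM-3 KO 1 were TTEX-like in 18.5% against 21.1% and TPEX-like in 14.8% against 10.4%, close to the other called cells, and carried Havcr2 in 3.70% against 24.2%. These shares compare cells of 1 mouse and carry no test over mice.

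**Figure D4:**
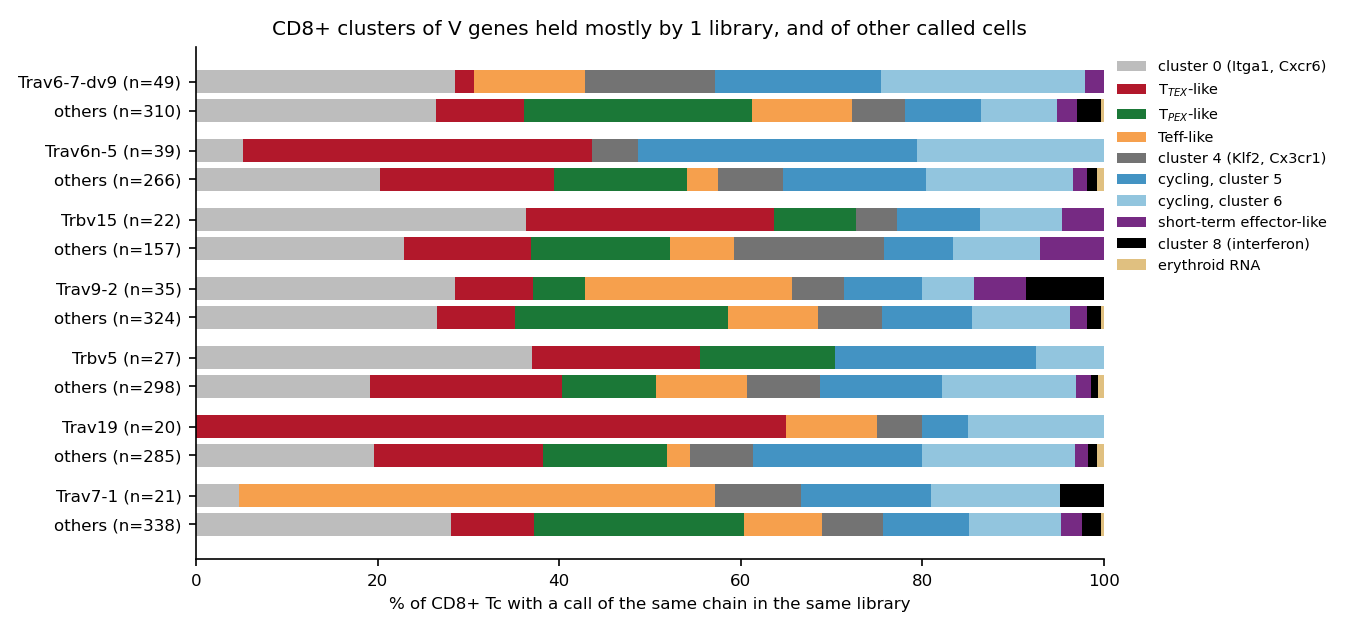
Share of CD8+ Tc (x axis, %) in each CD8+ cluster for the 7 genes held mostly by 1 library, each beside the other cells with a call of the same chain in that library. The TPEX-like cluster held none of the Trav6-7-dv9, Trav6n-5, Trav19 and Trav7-1 cells.

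Pairs of alpha and beta calls that recurred were next listed, with the number of cells that the product of the 2 shares would give in the same library. With at least 10 cells and 3 times the product required, 4 pairs were found in CD8+ Tc. None was found in CD4+ Tc, where 23, 59, 16 and 6 cells had both calls, so that 10 cells of a pair could not occur in floxed control 2 and were out of reach for most pairs elsewhere. Trav6-7-dv9 with Trbv3 was seen in 20 of 147 CD8+ Tc with both calls in TIM-3 KO 2, 4.38 times the product of 4.57. Trbv3 was the partner of 20 of the 24 Trav6-7-dv9 cells that had a Trbv call. In TIM-3 KO 1, Trbv3 recurred with another alpha gene, Trav12-2, in 13 of 75 cells (4.10 times the product), and 13 of the 14 Trav12-2 cells with a Trbv call carried it.

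The same beta gene thus recurred with different alpha genes in 2 mice. Of the cells with Trav12-2 and Trbv3, 61.5% carried Mki67 and none of 13 was TPEX-like. Of those with Trav6-7-dv9 and Trbv3, 60% carried Mki67 and none of 20 was TPEX-like. No shares of other cells with both calls stand beside these, so they do not show that the pairs differ. The cycling CD8+ clusters 5 and 6 had 1.91 and 2.61 times the median depth on average. Whether requiring both calls raised the Mki67 share was not tested. Trav16 with Trbv15 was seen in 18 of 76 cells of floxed control 1 (3.04 times the product), and all 18 Trbv15 cells with a Trav call carried Trav16. With copies of Trav genes merged this pair was still seen in 18 of 77 cells, but stood at 2.14 times its product, below the limit. Merging makes the alpha gene more common and so raises the product, so the lower ratio does not show a weaker pairing. Trav16n with Trbv13-1 was seen in 10 of 147 cells of TIM-3 KO 2 (4.90 times the product).

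Some pairs with fewer cells were as one-sided. Trav7-1 was paired with Trbv12-1 in 8 of 8 cells of TIM-3 KO 2 with both calls, Trav6n-5 with Trbv29 in 7 of 8 cells of TIM-3 KO 1, and Trav19 with Trbv13-1 in 4 of 4 cells of that mouse. Of the 100 Trbv29 cells of TIM-3 KO 1, 20 had a Trav call, spread over 12 alpha genes. In CD8+ Tc, 33.3%, 35.4%, 23.7% and 27.8% of cells with both calls lay in a pair seen in at least 5 cells, against 0%, 11.9%, 0% and 0% in CD4+ Tc, where fewer cells had both calls. The CD4+ pair was Trav20 with Trbv16, in 7 of 59 cells of TIM-3 KO 2. Trav20 is annotated as a pseudogene, and all 30 of its UMIs, in 18 T cells, came from that library. Whether it forms a working alpha chain was not tested.

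Across the states, 1 cluster of 1 mouse stood out, and it was chosen after its values were seen. In the Teff-like cluster of TIM-3 KO 1, 24 of 30 cells with a Trbv call carried Trbv13-2 (80%, Wilson interval 62.7 to 90.5), against 6 of 295 called CD8+ Tc outside that cluster (2.03%). In the Teff-like cluster of the other mice, Trbv13-2 took 0 of 23, 2 of 11 and 1 of 26 calls. None of those 24 cells carried a Trav UMI. In that cluster a Trav UMI was seen in 9 of 169 cells (5.33%) against 24.1% of other CD8+ Tc of the library. Trac was detected in 70.4% of its cells (91.3%, 95.6% and 79.1% in the Teff-like cluster of the other mice), and beta constant UMIs stood at 10.1 per Trac UMI (5.15 to 5.98 in the Teff-like cluster of the other mice). In the Teff-like cluster of the other mice a Trav UMI was seen in 45.7%, 31.1% and 15.0%. The median depth of the cluster was 3377 UMIs against 5025.5 outside it in TIM-3 KO 1.

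The 24 Trbv13-2 cells were set beside the other 145 cells of their cluster, most of which had no Trbv call and may carry the same gene, so the comparison cannot show whether Trbv13-2 cells differ. Gzmb was carried by 95.8% and 88.3%, Tox by 91.7% and 95.2%, Pdcd1 by 66.7% and 73.8%, Gzmk by 58.3% and 74.5%, and Tcf7 by 0% of both.

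In TPEX-like cells the effective number of Trbv genes was 10.6, 13.0, 12 and 11.0, and in TTEX-like cells 5.04, 7.12, 10.8 and 11.2. It was higher in TPEX-like cells in 3 of 4 mice (mean difference 3.13 ± 3.07, exact sign-flip p = 0.25). For Trav the mean was 14.2 ± 3.73 in TPEX-like and 8.99 ± 5.70 in TTEX-like cells, higher in 3 of 4 mice (exact sign-flip p = 0.25). The leading gene of TTEX-like cells was Trbv29 at 36.8% of Trbv calls in TIM-3 KO 1, Trbv2 at 28.9% in TIM-3 KO 2, Trbv15 at 21.4% in floxed control 1 and Trbv19 at 16.7% in floxed control 2. A different gene led in each mouse. The TTEX-like cluster held 276, 105, 60 and 234 cells and the TPEX-like cluster 166, 198, 78 and 131. Only part of these cells had a call, so the shares and effective numbers rest on fewer cells.

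Across all genes, 24.5% of 7148 differed between TPEX-like and TTEX-like sums, but 1 member alone had enough UMIs to be tested and 0 were called. Trav16n differed by 0.48 on the log2 scale (SE 0.36, edgeR adjusted p = 0.382). DESeq2 did not call Trav16n either, against 888 of 7148 genes.

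CD4+ Tc with a Foxp3 UMI, the marker of regulatory T cells, numbered 32, 56, 6 and 17, and 111 in all. Of these, 85 lay in the Treg-like cluster and 15 in the cycling cluster. Ikzf2 (Helios), another gene of regulatory T cells, was carried by 83.3% to 100% of them and 15.9% to 21.7% of other CD4+ Tc. A Trbv UMI was seen in fewer of them than of other CD4+ Tc, and a Trav UMI was not. A Trbv UMI was found in 2 of 32, 9 of 56, 1 of 6 and 0 of 17 Foxp3+ cells (6.25%, 16.1%, 16.7% and 0%), against 19.3%, 31.7%, 28.9% and 16.6% of CD4+ Tc without a Foxp3 UMI. It was lower in 4 of 4 mice, and the counting intervals overlapped in all but TIM-3 KO 2. A Trav UMI was found in 18.8%, 41.1%, 33.3% and 11.8% against 17.0%, 28.3%, 26.8% and 10.7%, higher in 4 of 4 mice but with overlapping counting intervals in each. Median depths were 3334, 4649.5, 8841.5 and 2188 UMIs in Foxp3+ cells and 3882, 5332, 5402 and 2785 in the others.

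The constant regions, with far more UMIs, were compared in the same cells. Beta constant UMIs (Trbc1 and Trbc2) per alpha constant UMI (Trac) were 1.16, 1.41, 1.61 and 1.23 in Foxp3+ cells and 4.56, 3.62, 3.79 and 4.60 in the others. The ratio was lower in 4 of 4 mice, by 1.62 ± 0.38 on the log2 scale (mean log2 ratio -1.62, exact sign-flip p = 0.13, the smallest possible). In the edgeR fit with the mouse as a block, Trbc1 fell by 1.52 on the log2 scale (SE 0.18, edgeR adjusted p = 2.76e-09) and Trbc2 fell by 1.47 (SE 0.15, edgeR adjusted p = 6.37e-11), whereas Trac differed by 0.12 (edgeR adjusted p = 0.798). The fall was not limited to the beta chain: Cd247 fell by 1.38 (edgeR adjusted p = 5.99e-07) and Cd3g fell by 0.79 (edgeR adjusted p = 8.79e-05), while Cd3e (log2 fold change -0.28) and Cd3d (-0.20) were not called. In that fit 8.11% of 6933 genes passed. No Trav or Trbv gene had enough UMIs in Foxp3+ cells to be tested, so 0 members were called.

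**Figure D5:**
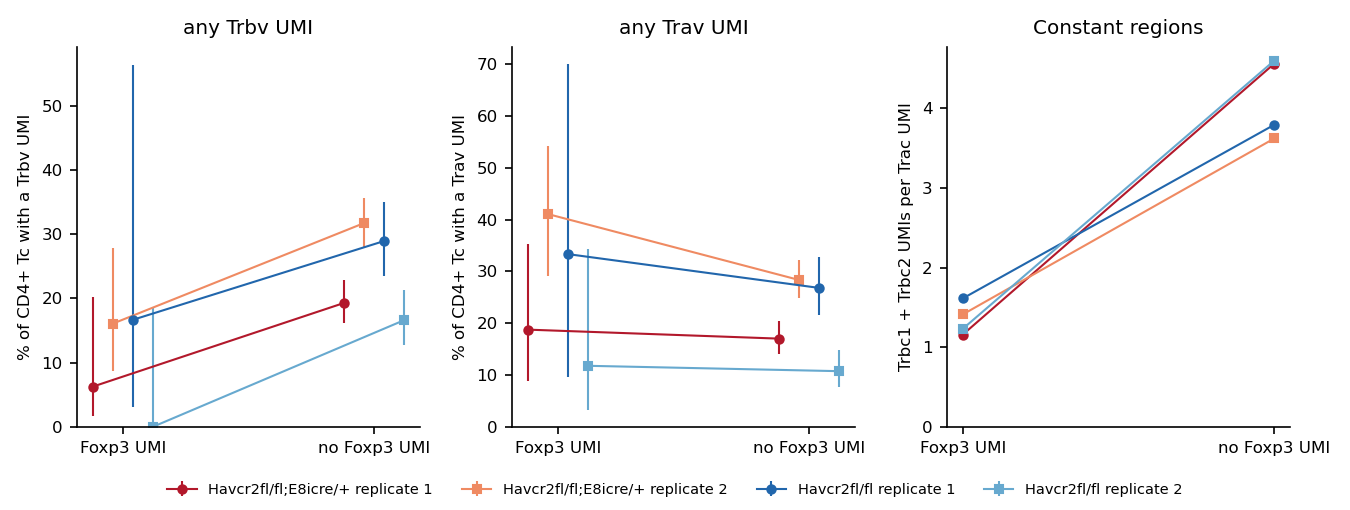
Share of CD4+ Tc with any Trbv UMI (left) or any Trav UMI (middle), with 95% Wilson intervals, and beta constant UMIs per Trac UMI (right), in cells with and without a Foxp3 UMI of each library. The ratio of the constant regions was between 1.16 and 1.61 in Foxp3+ cells and between 3.62 and 4.60 in the others.

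Cluster by cluster, the ratio was 1.13 to 1.40 in the Treg-like cluster in the 3 libraries for which it was computed, and 2.80 to 5.89 over 4 libraries in CD4+ clusters 0 to 4. The CD4+ cluster with erythroid RNA (9 cells) was left out. The signal of the donor tag (H-2Kb) had medians of 2242.5, 2700.5, 4939 (from 6 cells) and 1901 UMIs in Foxp3+ cells. In the other CD4+ Tc the medians were 1610, 1945, 2388 and 1116, lower in 4 of 4 mice. Over all cells kept, of every cluster, they were 1751, 1989, 2448 and 1830, and only 16, 12, 18 and 8 cells had a low tag. The tag thus set few cells apart, and donor origin of the Foxp3+ cells was not tested. Among the 12 Foxp3+ cells with a Trbv call, 10 carried Trbv12-1, 2 of 2 in TIM-3 KO 1 and 8 of 9 in TIM-3 KO 2. It was 0 of 1 in floxed control 1, and floxed control 2 had 0 such calls, so the genotypes cannot be compared. Among 370 CD4+ Tc with a Trbv call and no Foxp3 UMI, 5 carried Trbv12-1 (1.35%). The 10 cells included 4 with a Trav call, from 3 Trav genes. These calls were pooled over both mice, so sharing of an alpha gene within a mouse was not determined. The gene was picked out after its values were seen. The Trav calls of Foxp3+ cells were spread over 17 genes in 25 cells, led by Trav16n (4 cells) and Trav3-3 (3 cells).

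Beside the members, constant and CD3 genes of CD8+ and CD4+ Tc were compared in the same fit as the members. Trbc2 and Cd3e were each higher in CD8+ Tc by 0.43 on the log2 scale and Cd3g by 0.24, and Cd247 was lower (log2 fold change -0.71). The gamma constant genes Tcrg-C1, Tcrg-C2 and Tcrg-C4 were higher by 1.95, 3.23 and 3.65. Trac (-0.05) and Trbc1 (0.11) were not called. The differences of Trbv29, Trav16 and Trav16n were thus larger than those of the constant regions of the same chains.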

How the data were processed

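Single-cell RNA libraries (10x 3′ v3.1) were made from spleen Tc of 4 mice. The authors aligned reads and counted UMIs per gene and barcode with Cell Ranger 6.1.2 on mm10, and the deposited values are raw counts. Barcodes had to hold 500 genes, 1000 UMIs and a mitochondrial share of no more than 10%. Doublets were removed by the highest Scrublet scores at 0.8% per 1000 barcodes, since Scrublet's own threshold marked only 2, 5, 9 and 109 barcodes. Cells were clustered with Seurat 5.3.0 (2000 variable genes without Trav and Trbv genes, 30 dimensions, 20 neighbors), and clusters were named only from at least 3 markers. UMIs were summed per mouse and class, scaled by TMM after edgeR's filter on low counts, and tested with edgeR 4.0.16 (R 4.3.3). DESeq2 1.42.0 was an alternative. The steps were tested on simulated data. Comparisons of cell classes had the mouse as a block, since both classes came from the same animal. Replicate numbers were not taken to pair mice between genotypes, as there were only 2 pairs (correlation of deviations -0.13 in CD8+ and 0.02 in CD4+ Tc). Shares, intervals and permutation tests used Python 3.11.15 with scipy 1.17.1.

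Genes named in the text were the 8 Trbv and 6 Trav genes with the highest mean share, genes held mostly by 1 library, members past a threshold, recurring pairs, and the members of fixed lists (superantigen-responsive Trbv genes, the Trbv13 family, invariant alpha genes, constant and CD3 genes). The members and lists were chosen with earlier results of these data known. Trbv13-2 in the Teff-like cluster and Trbv12-1 in Foxp3+ cells were picked out after their values were seen. Alternatives covered the scaling, the filter on low counts, leaving out each library, stricter cells, doublets kept, the block, thinning, stricter calls and merged Trav copies.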

Additional observations from a re-analysis of the deposited data

Results flagged for a closer look

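Of 26 contrasts of shares between CD8+ and CD4+ Tc, 2 had 1 mouse far from the other 3. Chance alone flags about 1 in 20 groups, but both genes were named because 1 library held them, so that rate does not apply here. For Trav6-7-dv9, the gap of TIM-3 KO 2 to the nearest mouse was 0.982 of the whole range, and for Trav6n-5 the gap of TIM-3 KO 1 was 1.0 of the range, since the other mice had none.

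Among the contrasts of shares, 3 genes were picked for a sign of the CD8+ minus CD4+ difference that followed genotype. It ran one way in both TIM-3 KO mice and the other way in both floxed controls. How many genes would do so by chance was not tested. For Trbv19 the difference in share was -11.1, -7.17, 3.88 and 7.39 percentage points, a difference between the genotype means of -14.8 points. For Trbv15 it was -4.38, -4.78, 5.94 and 0.548 points, a difference of -7.83 points. For Trav12-2 it was 2.72, 4.11, -4.32 and -0.189 points, a difference of 5.67 points. In floxed control 2 the CD4+ shares rest on 48 Trbv calls and 32 Trav calls, and Trbv15 and Trbv19 each stood at 0.989 CPM there. The sign of the small differences of Trbv15 and Trav12-2 in that mouse is thus uncertain. The differences in share were not tested. In the edgeR interaction of genotype and class, 0 of 25 members were called, against 2 of 10864 genes. The 3 genes picked had an unadjusted p under 0.05, but they were picked from the same data, so this adds no support. The edgeR adjusted p was 0.792 for Trbv15, 0.857 for Trbv19 and 1.0 for Trav12-2.

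T cells left out of the CD8+ and CD4+ classes also carried variable gene UMIs, above the level in cells of other clusters except for Trav in cells with both coreceptors of floxed control 2 (0 of 18 cells). The lowest share of a library with a Trbv UMI was 16.7% among T cells with both coreceptors and 8.0% among those with neither, and the lowest share with a Trav UMI among those with neither was 8.5%.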

How the results depend on the processing

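Without a filter on low counts, 8 of 96 members were called between genotypes in CD8+ Tc (96 of 17140 genes), 17 of 102 between CD8+ and CD4+ Tc (3115 of 17896 genes), 3 of 82 between TPEX-like and TTEX-like cells (2193 of 15321 genes) and 3 of 87 between Foxp3+ and other CD4+ Tc (665 of 15869 genes). Leaving out 1 library left a single mouse in a genotype group, so counts of calls between genotypes from those fits are not given. With the replicate number as a block, 0 of 20 members were called between genotypes in CD8+ Tc (0 of 10824 genes). In CD4+ Tc 0 of 4 were called (5 of 9568 genes). A crossed replicate block, chosen after seeing the data, gave 5 of 20 in CD8+ Tc (61 of 10824 genes). Without the mouse as a block, 3 of 14 members were called between CD8+ and CD4+ Tc (1078 of 10301 genes). Between TPEX-like and TTEX-like cells without the block, 0 of 1 member was called (1218 of 7148 genes). Between Foxp3+ and other CD4+ Tc without the block, 0 members were tested (351 of 6933 genes called). Calls that needed at least 2 UMIs turned the CD8+ minus CD4+ difference in the effective number of Trbv genes to 0.788, although CD8+ Tc were still lower in 3 of 4 mice and the sign turned through floxed control 2 (17.3 against 3.33, the latter from 5 CD4+ cells). They put the most used Trbv gene of CD8+ Tc at 25.0%, 27.5%, 22.0% and 15.0% in the 4 libraries. They left 0 recurring pairs, but only 8, 19, 9 and 3 CD8+ Tc then had both calls. The limit of 10 cells was thus out of reach except in TIM-3 KO 2. There, Trav6-7-dv9 with Trbv3 still led, in 8 of 19 cells. Thinned to 2000 UMIs, the share of T cells with a Trbv UMI was 8.79%, 12.6%, 13.2% and 9.81%, and with a Trav UMI 9.51%, 15.3%, 13.9% and 11.4%. The cause of these changes was not tested. The TPEX-like and TTEX-like fit with doublets kept was not run, and the Trav difference with at least 2 UMIs could not be computed.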
